A study of Saccharomyces cerevisiae with 13 samples.

Results

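The genes described here are 368 genes of chromosome XVI of the budding yeast Saccharomyces cerevisiae, out of 5449 genes read on the arrays. They were taken by systematic name (YPL for the left arm, YPR for the right arm), leaving out ribosomal proteins, ribosome biogenesis factors and a set of named metabolic, cell cycle, proteasome, respiratory and meiotic genes. The array reads 424 genes of chromosome XVI, of which the name rule leaves out 56. Of the 368 members, 224 lie on the left arm and 144 on the right arm, and 332 have a gene name. The chromosome was chosen by its strain difference, the log2 intensity in the evolved strain minus that in its parent, so every strain difference below is a description of the values that led to the choice and carries no test. Differences between furfural levels were not used in that choice and are tested.

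RNA came from glucose-limited chemostats with little oxygen and with furfural in the feed. FT30-3, written in full as TMB3400-FT30-3, is a strain adapted by evolution to high furfural, with 3 samples grown on 15 mM furfural, 2 on 25 mM and 3 on 36 mM. TMB3400, its less resistant parent, has 2 samples grown on 15 mM and 3 on 25 mM, and did not persist in the chemostat at 36 mM, so the highest level has no parent to set against it. The sources used here do not say whether FT30-3 was a single clone, and DNA was not measured in the files analysed. Replicates are described as biological.

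Furfural is an aldehyde set free when plant biomass is broken down for fermentation. Yeast copes with it mainly by reducing it to an alcohol, which draws on NADPH and NADH. A yeast chromosome is not organised by pathway: chromosome XVI carries subunits of general transcription factors, chromatin complexes, vesicle coats, mitochondrial import and assembly proteins, transporters and enzymes, most of which work with partners encoded on other chromosomes. The question is which of its genes shared the higher level in FT30-3 and which did not, sorted by function.

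An intensity is the brightness of a probe set on a linear scale, and differences are on the scale of log2(intensity + 1), given with the standard error of the fit. Array medians ran from 1412 to 1663 and replicate arrays correlated at 0.966 to 0.995. Probe sets for another yeast, Schizosaccharomyces pombe, which was not in these cultures, served as background, with a 95th percentile of 31.2 to 39.0. Above that level on all 13 arrays were 362 of the 368 members. FEX2, a fluoride exporter, was at or below it on every array, so no fold is given for it. The other 5 members were below it on some arrays.

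Members read higher in FT30-3 almost without exception. At 15 mM the median difference, FT30-3 minus TMB3400, was 0.45 over the 368 members, 0.23 over the 56 chromosome XVI genes left out by the rule and -0.03 over the 5025 genes of the other chromosomes. At 25 mM the same medians were 0.46, 0.24 and -0.03. Averaged over both levels, the members' median lay 0.48 above that of the other chromosomes, a ratio of 1.40. Each of the other 15 chromosomes had a median between -0.06 and -0.01. In a culture the intensity is a mean over all cells, so more cells holding an RNA and more RNA per cell cannot be told apart.

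As the plot of strain differences shows, the distribution of members lay higher than that of other genes, with some overlap, and its quartiles were not closer together. Averaged over both levels, 359 of 368 members (97.6%) were above 0, against 2179 of the 5025 genes off chromosome XVI (43.4%). The lower and upper quartiles were 0.33 and 0.60 for members and -0.14 and 0.09 for genes off the chromosome.

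The counts past the threshold of the limma fit over all 5449 genes are given as a description, since these differences chose the chromosome, and nothing is read from them. At 15 mM 101 members were past it, all higher in FT30-3, where 2.28% of all genes were past it, 2.07% higher and 0.202% lower. At 25 mM 141 members were past it on the higher side and 1, UME1, on the lower, where 6.2% of all genes were past it, 4.37% higher and 1.84% lower. For the average it was 241 members, all higher, where 10.8% of all genes were past it, 7.18% higher and 3.58% lower. At 15 mM the count was 4 without the second TMB3400 replicate at 15 mM and 18 without the first, 29 to 37 without any 1 of the FT30-3 replicates at 15 mM, 66 without the third TMB3400 replicate at 25 mM and 174 without the first FT30-3 replicate at 36 mM. At 25 mM it was 43 without the first FT30-3 replicate at 25 mM and 94 without the second TMB3400 replicate at 25 mM. The gap between the medians of members and of other chromosomes at 15 mM stayed between 0.482 and 0.494 when each library was left out in turn. S. pombe probe sets, in a fit of their own, were past the threshold in 0% of cases at 15 mM, 7.67% at 25 mM and 2.18% for the average. The share at 25 mM is above that of all genes (6.2%). How far the same spread between arrays enters the gene counts was not tested.

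**Figure D1:**
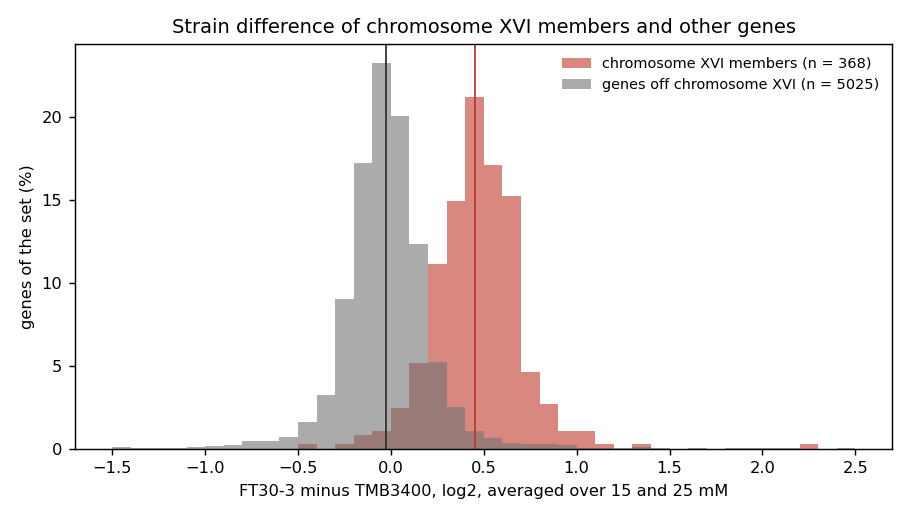
Distribution of the strain difference (FT30-3 minus TMB3400, log2, averaged over 15 and 25 mM) for 368 chromosome XVI members in red and 5025 genes off chromosome XVI in grey, as a percentage of each set, with vertical lines at the medians of 0.45 and -0.03. Values below -1.5 or above 2.5 are drawn in the end bins.

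Array by array, the strains were apart for most members. At 15 mM, the 3 FT30-3 arrays were all above both TMB3400 arrays for 330 members, where this held for 17.0% of all genes. At 25 mM, both FT30-3 arrays were above the 3 TMB3400 arrays for 288 members, where this held for 17.6% of all genes. For 190 members, each of the 8 FT30-3 arrays, at 15, 25 and 36 mM, was above each of the 5 TMB3400 arrays, where this held for 4.33% of all genes. A single number per array, the median log2 intensity of members minus that of genes off the chromosome, ran from 0.328 to 0.398 in the 8 FT30-3 arrays and from -0.144 to -0.053 in the 5 TMB3400 arrays. No array of either strain came near the other strain's range. Within FT30-3 this number averaged 0.374 ± 0.009 at 15 mM (SD, n = 3), 0.333 ± 0.007 at 25 mM (SD, n = 2) and 0.382 ± 0.014 at 36 mM (SD, n = 3). Both arrays at 25 mM lay below all arrays at 15 and 36 mM, a difference that was not tested. With each gene first set relative to its mean over groups, a measure chosen after seeing the data, the arrays ran from 0.182 to 0.190 at 15 mM, 0.195 to 0.216 at 25 mM and 0.173 to 0.240 at 36 mM, and those at 25 mM were no longer below. The difference of 0.0079 in the first measure, 36 against 15 mM, was smaller than the spread between replicates (two-sided exact permutation p = 0.6, where the smallest possible is 0.1).

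The higher level extended along both arms. When the members were put in order from the left tip to the right tip and cut into 8 runs of 46, the median of every run was positive, and 44 to 46 genes of each run were above 0. The lowest run, from HAA1 to ISA2 on the right arm, had a median of 0.38. The highest, from MLH3 to PEX25 on the left arm, had a median of 0.52. The left arm's median was 0.49 and the right arm's 0.42. No run lay at the level of the other chromosomes, as the plot along the chromosome shows.

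**Figure D2:**
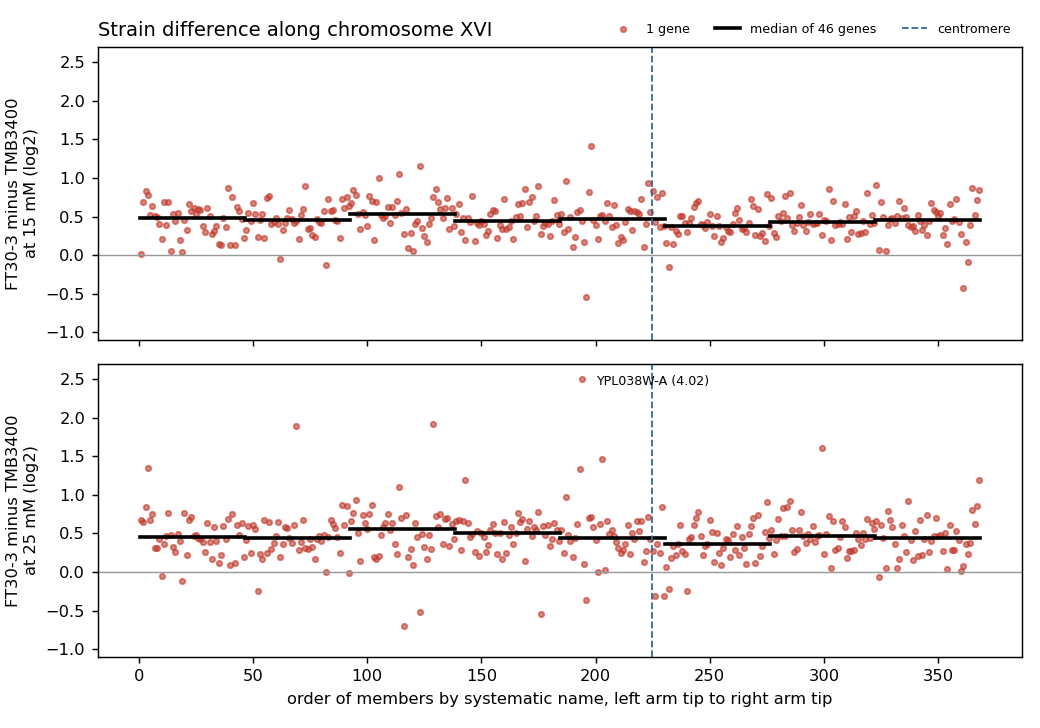
Strain difference (FT30-3 minus TMB3400, log2) of each of the 368 members at 15 mM (upper panel) and 25 mM (lower panel), in the order of systematic names from the left arm tip to the right arm tip, with black bars for the medians of 8 runs of 46 genes and a dashed line at the centromere. The bars stay above 0 throughout, and YPL038W-A at 25 mM (4.02) is drawn at the upper edge.

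Brighter members showed a smaller difference. Ordered by mean intensity into 5 classes, members had medians of 0.51, 0.54, 0.45, 0.45 and 0.34, from the dimmest to the brightest class. Genes off chromosome XVI in the same intensity ranges had medians of 0.00, -0.02, -0.04, -0.04 and -0.04. Among the brightest members, LSP1, a core protein of the eisosome furrows of the plasma membrane, read 10585, 11005 and 9082 in FT30-3 and 9243 and 9772 in TMB3400 at 15 mM. NCE102, a membrane protein of the same furrows, read 13864, 13839 and 13416 in FT30-3 and 12982 and 13507 in TMB3400 at 15 mM. FAS2, the alpha subunit of fatty acid synthase, read 10302, 10952 and 10246 in FT30-3 and 9866 and 9139 in TMB3400 at 15 mM. The strains overlapped for LSP1 and NCE102 and were apart by a small margin for FAS2. PRM4, a bright gene induced by mating pheromone, was apart from these, with 11482, 12101 and 11036 in FT30-3 and 7421 and 6222 in TMB3400 at 15 mM. How far brightness itself sets the size of the difference was not tested.

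By function, 268 members fall into 20 lists written from gene names and known roles. All 20 list medians were positive, and 15 of the lists had no member at or below 0. For the largest lists the medians were close to that of all members (0.45). The 26 genes of secretory and vacuolar traffic had a median of 0.45 and a range of 0.21 to 0.83. The 23 genes of mRNA capping, splicing, export and decay had a median of 0.45 and a range of 0.24 to 0.79. The 23 chromatin genes had the same median, and 1 of them, UME1, was below 0. The 21 genes of mitochondrial import, assembly and genome upkeep had a median of 0.52 and a range of 0.22 to 0.84.

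The lowest list medians were those of 5 lists. The 5 eisosome and stress-induced genes had a median of 0.12, with NCE102 at 0.05 ± 0.06, LSP1 at 0.12 ± 0.08 and GRE1, a hydrophilin made under osmotic stress, at 0.12 ± 0.24. PIN3 (0.53) and HAL1 (0.82), in the same list, were not low. The list was bright, with a median intensity of 9073, against 1745 for all members. How far brightness sets its median was not tested. The 11 plasma membrane and vacuolar transporters had a median of 0.28, from PMA2 at -0.45 to ARR3 at 1.01, and 3 of them were below 0. The 7 mitochondrial carriers and iron-sulfur assembly genes had a median of 0.29, and the 20 genes of translation and tRNA modification one of 0.34. The 16 DNA-binding regulators had a median of 0.37, with SUT2 and CUP9 below 0. The highest medians were 0.60 for 7 mating and spore genes, 0.54 for 3 peroxisomal genes and 0.54 for 6 autophagy genes. The mating and spore genes were dim, with a median intensity of 435, against 1745 for all members. Their median was 0.52 at 15 mM and 0.37 at 25 mM, against 0.45 and 0.46 for all members. The 35 members with a systematic name only, in no list, had a median of 0.56. ATG41 (-0.04), which is needed for autophagy, is in no list either.

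**Figure D3:**
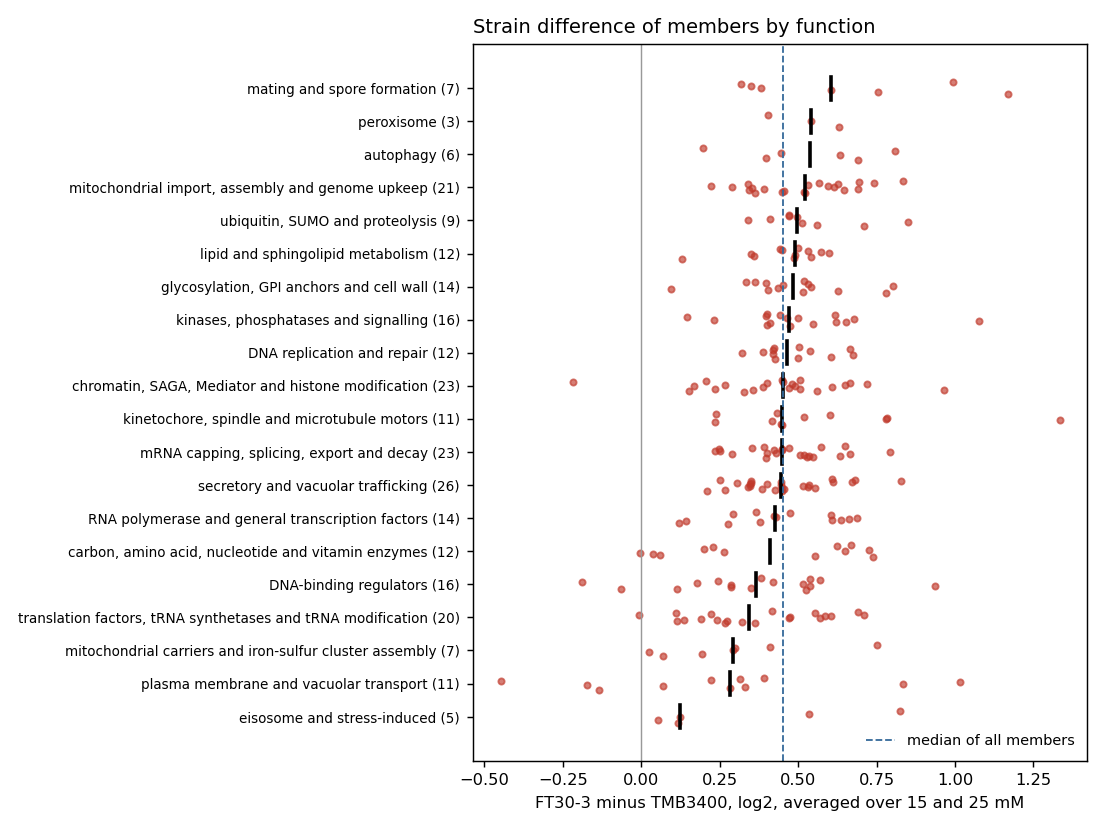
Strain difference (FT30-3 minus TMB3400, log2, averaged over 15 and 25 mM) of the 268 members in 20 function lists, 1 point a gene, with the number of genes in brackets, black bars at the list medians and a dashed line at the median of all 368 members (0.45). The list medians run from 0.12 to 0.60, and points left of 0 appear in 5 lists.

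Multi-subunit complexes set genes of the chromosome beside others of the same task, since most of their subunits are encoded elsewhere. The complexes were listed with earlier results known and the chromosome was chosen by the strain difference, so the counts are a description. The Rpd3 histone deacetylase, with UME1 (-0.22), is not among them. In 14 of 14 complexes the median of the chromosome XVI subunits was above that of the partners, with a median of 0.40 over 41 members and -0.06 over 180 partners. TFIIH, which opens promoter DNA for RNA polymerase II and takes part in DNA repair, is an example. Its members TFB2, TFB4 and CCL1 lay at 0.64 ± 0.07, 0.66 ± 0.18 and 0.69 ± 0.09, and its 7 partners ran from -0.19 (KIN28) to 0.06 (TFB3). TFB2 read 1229, 1211 and 1243 in FT30-3 and 807 and 717 in TMB3400 at 15 mM, and 1431 and 1428 in FT30-3 and 929, 958 and 968 in TMB3400 at 25 mM.

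In SAGA, a coactivator that acetylates and deubiquitinates histones, SGF11 lay at 0.97 and HFI1 at 0.36, against -0.27 to 0.25 for 17 partners. SGF11 sits in the deubiquitinating module with UBP8, which was the lowest partner. In the ESCRT machinery, which sorts membrane proteins into vacuole-bound vesicles, SNF8 (0.83), VPS28 (0.61), VPS4 (0.35) and BRO1 (0.25) were all above the 11 partners (-0.12 to 0.18). In the signal recognition particle, which brings secretory proteins to the endoplasmic reticulum, SRP68 (0.51), SRP54 (0.35) and SRP72 (0.35) were above its 5 partners (-0.19 to 0.05). The chromosome XVI subunits were also above all partners in the V-ATPase, exocyst, COPII coat, Elongator, the COMA and MIND kinetochore complexes and SWI/SNF with RSC. In RNA polymerases, RPC40 (0.12), RPC82 (0.14), RPA135 (0.28) and RPO26 (0.38) had a median of 0.21 and 26 of 27 partners lay below RPC40. In Mediator, 16 of 21 partners lay below the lowest member, the kinase SSN3 (0.15). In the MCM helicase and origin recognition complexes 9 of 10 partners lay below MCM4 (0.32), with MCM6 (0.36) as the exception. In the autophagy core 21 of 22 lay below the lowest of 6 members (0.40), with ATG16 (0.50) as the exception. ATG41 (-0.04), a member also needed for autophagy, is in neither that core nor the autophagy list.

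An average strain difference of 0 or less was found in 9 members, 352 lay between 0 and 1, and 7 were at 1 or more. The limits are ranges of a continuous value: the nearest values on either side were ASN1 (-0.0028) and AGC1 (0.023) at the lower limit, and SMA1 (0.993) and ARR3 (1.01) at the upper. SMA1, a spore membrane gene, was at background on some arrays. ASN1 (0.02) and PUS1 (0.02) read above 0 when arrays were centred on genes off the chromosome, which left 7 members at 0 or less. Off chromosome XVI, 56.6% of genes were at 0 or less. Only 3 members, PMA2, SUT2 and CUP9, were at or below 0 at both levels, and 351 were above 0 at both.

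PMA2, a minor form of the plasma membrane proton pump, had the lowest value (-0.45 ± 0.35). It read 2978, 2011 and 2331 in FT30-3 and 3075 and 3985 in TMB3400 at 15 mM, and 2745 and 1547 in FT30-3 and 2067, 2482 and 3587 in TMB3400 at 25 mM. The strains were apart at 15 mM and overlapped at 25 mM. SUT2, a zinc-cluster relative of the sterol uptake regulator SUT1, read 413, 371 and 435 in FT30-3 and 411 and 495 in TMB3400 at 15 mM, and 527 and 422 in FT30-3 and 634, 511 and 514 in TMB3400 at 25 mM. CUP9, a repressor of the peptide transporter gene PTR2, had differences of -0.13 ± 0.16 at 15 mM and -0.002 ± 0.16 at 25 mM. Both regulators overlapped between strains at each level.

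UME1, a subunit of the Rpd3 histone deacetylase, and PDR12, the exporter of weak organic acids, were higher in FT30-3 at 15 mM and lower at 25 mM. UME1 read 1914, 2034 and 1825 in FT30-3 and 1560 and 1628 in TMB3400 at 15 mM, and 1178 and 1035 in FT30-3 and 1747, 1757 and 1895 in TMB3400 at 25 mM. PDR12 read 7132, 8539 and 8781 in FT30-3 and 6546 and 6875 in TMB3400 at 15 mM, and 3806 and 4059 in FT30-3 and 5171, 6369 and 5712 in TMB3400 at 25 mM. For both genes the arrays of the strains did not overlap at either level and their order turned round. The test of the change itself, the interaction of strain with 25 against 15 mM, did not pass for UME1 (-0.997 ± 0.23, limma adjusted p = 0.107) or PDR12 (-0.84 ± 0.24, adjusted p = 0.32). The mitochondrial aspartate-glutamate carrier gene AGC1 and ICL2, a methylisocitrate lyase of propionate breakdown, also differed in sign, without passing that test (adjusted p = 0.46 and 1), with 0.30 ± 0.13 and 0.38 ± 0.28 at 15 mM and -0.25 ± 0.13 and -0.31 ± 0.28 at 25 mM. AQY1, a water channel of spores, had differences of -0.43 ± 0.47 at 15 mM and 0.08 ± 0.47 at 25 mM, within its spread between arrays.

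ASN1, an asparagine synthetase, ATG41, a protein needed for autophagy, and PUS1, a tRNA pseudouridine synthase, complete the 9. ASN1 read 4260, 4509 and 4222 in FT30-3 and 4064 and 4222 in TMB3400 at 15 mM, and its differences were 0.06 ± 0.11 at 15 mM and -0.07 ± 0.11 at 25 mM. ATG41 and PUS1 had differences of 0.04 ± 0.27 and 0.23 ± 0.16 at 15 mM and of -0.11 ± 0.27 and -0.25 ± 0.16 at 25 mM. All 3 overlapped between strains at 25 mM.

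**Figure D4:**
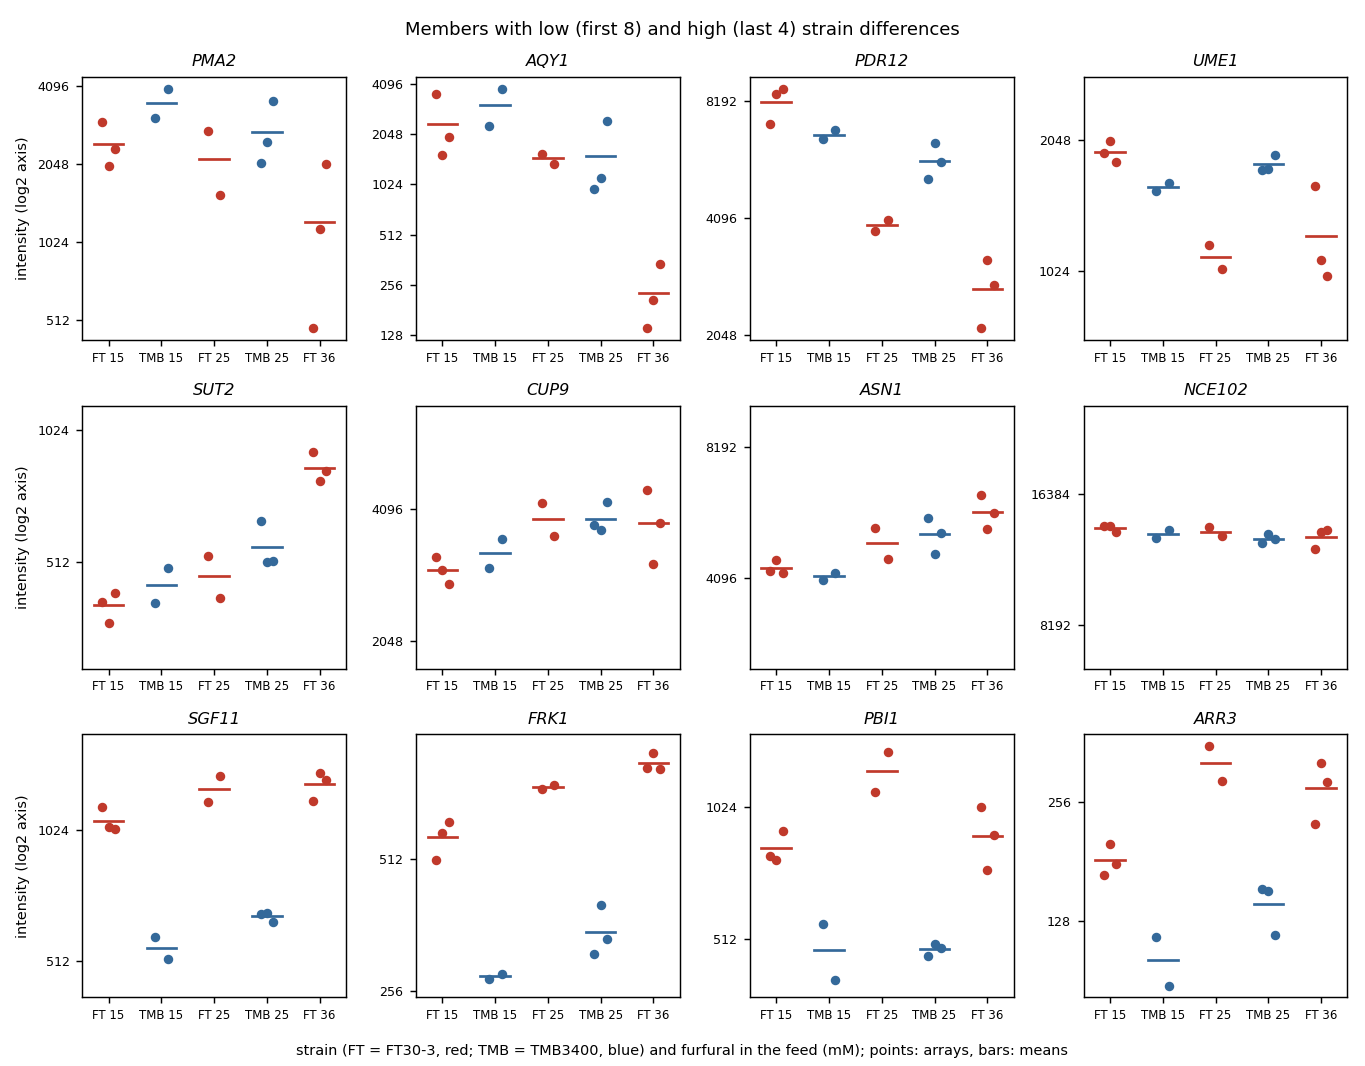
Intensity on a log2 axis of 12 members on each array, for FT30-3 (red) and TMB3400 (blue) at 15 and 25 mM and for FT30-3 at 36 mM, with bars at the group means. The first 8 genes have the low strain differences described in the text and the last 4, SGF11, FRK1, PBI1 and ARR3, have every FT30-3 array above every TMB3400 array.

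At the other end, FRK1, a protein kinase, was about as far apart at both levels (1.05 ± 0.12 at 15 mM and 1.11 ± 0.12 at 25 mM). It read 511, 590 and 625 in FT30-3 and 273 and 280 in TMB3400 at 15 mM, and 742 and 759 in FT30-3 and 311, 401 and 337 in TMB3400 at 25 mM. SGF11 was likewise steady, with 0.96 ± 0.10 at 15 mM and 0.97 ± 0.10 at 25 mM, and read 1154, 1040 and 1027 in FT30-3 and 582 and 518 in TMB3400 at 15 mM. ARR3, an arsenite exporter and the rightmost member, read 168, 201 and 178 in FT30-3 and 116 and 87.6 in TMB3400 at 15 mM, and 355 and 291 in FT30-3 and 154, 152 and 118 in TMB3400 at 25 mM. In each of these genes the strains were apart at both levels. PBI1 had differences of 0.79 ± 0.16 at 15 mM and 1.35 ± 0.16 at 25 mM. PRM3, a nuclear envelope protein needed for nuclear fusion in mating, had 0.44 ± 0.33 and 1.90 ± 0.33, and SRL4 had 1.42 ± 0.35 and 0.71 ± 0.35. SPC29 had 0.75 ± 0.15 at 15 mM and 1.92 ± 0.15 at 25 mM, and YPL038W-A had 0.44 ± 0.09 and 4.02 ± 0.09. Their arrays are given with the interaction.

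Individual members differed between furfural levels in both directions. These comparisons were made after each array was set to a common median over S. cerevisiae probe sets, so a change is relative to that median. At 36 against 15 mM in FT30-3, 78 of 368 members passed the test (21.2%), 37 higher and 41 lower at 36 mM, where 22.2% of all genes passed (11.0% higher and 11.2% lower). FEX2, at background on every array, is 1 of the 41. The members' median change was -0.0007 and that of genes off the chromosome -0.03. On the values as deposited, the median of all genes lay 0.17 higher at 36 than at 15 mM, and 105 members were called higher and 21 lower. The median change was then 0.20 for members and 0.17 for genes off the chromosome. No share of all genes called on those values stands beside these counts, so they are not read as a result about the members. Of the 78 members, 41 passed under all 22 alternative settings, and 2 more, MF(ALPHA)1 and YPR027C, under the 21 left by a filter on low values that removes them. The genes named next are from these 43 unless said otherwise. The comparisons within FT30-3 share arrays with each other and with the strain comparisons. S. pombe probe sets, tested in a fit of their own, were called in 9.11% of cases at 36 against 15 mM, 4.93% at 36 against 25 mM, and 8.88% in FT30-3 and 4.7% in TMB3400 at 25 against 15 mM. At 25 against 15 mM these shares are above those of S. cerevisiae genes, and how far the same spread between arrays enters the gene calls was not tested.

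AQY1 fell most, with 140, 208 and 340 at 36 mM, against 3554, 1542 and 1965 at 15 mM (-3.55 ± 0.42, limma adjusted p = 0.000259). LGE1, which works with the ligase BRE1 in the ubiquitination of histone H2B, read 471, 348 and 338 at 36 mM, against 1478, 1478 and 1338 at 15 mM (-2.10 ± 0.12, adjusted p = 2.57e-06). PDR12 read 2137, 3188 and 2758 at 36 mM, against 7132, 8539 and 8781 at 15 mM (-1.81 ± 0.15, adjusted p = 2.53e-05). In each of the 3 genes, every array at 36 mM was below every array at 15 mM. At 25 mM LGE1 read 1708 and 1493 in FT30-3 on the values as deposited, where the array medians were 1605 and 1596. The medians of the FT30-3 arrays at 15 mM were lower (1412 to 1456). On arrays set to a common median, LGE1 changed by -2.10 ± 0.13 at 36 against 25 mM (limma adjusted p = 5.87e-06). That was about the same fall as at 36 against 15 mM (-2.10 ± 0.12). PDR12 was at an intermediate level at 25 mM, with 3806 and 4059.

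SUE1, which is needed for the breakdown of unstable cytochrome c, had a log2 change of -1.38 (adjusted p = 0.00122), with 2343, 2614 and 2486 at 36 mM, against 7309, 6011 and 4024 at 15 mM. RSA1, an assembly factor of box C/D small nucleolar ribonucleoproteins, had one of -1.24 (adjusted p = 0.000362), with 578, 552 and 465 at 36 mM, against 1284, 1085 and 925 at 15 mM. USV1, a zinc-finger regulator of genes for growth on non-fermentable carbon, had one of -0.67 (adjusted p = 0.00126). The arrays at 36 mM were below those at 15 mM in all 3 genes. Smaller falls that held under all settings included UME1 (-0.87), LSP1 (-0.60) and ODC1, a mitochondrial oxodicarboxylate carrier (-0.50). PMA2 also fell (-1.41 ± 0.44, adjusted p = 0.0422), but without the first FT30-3 replicate at 36 mM its change was -0.84 and its adjusted p 0.0883, and it lost its call in 10 of 22 settings, with adjusted p up to 0.129 without the first FT30-3 replicate at 15 mM.

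Among the members that rose, ATG41 read 4458, 3986 and 3130 at 36 mM, against 756, 1175 and 1338 at 15 mM (1.65 ± 0.24, adjusted p = 0.000911). MF(ALPHA)1, which encodes the alpha-factor mating pheromone, was dim, with 240, 189 and 153 at 36 mM, against 53.8, 57.1 and 75.2 at 15 mM (1.42 ± 0.27, adjusted p = 0.00366). YPR015C read 353, 461 and 412 at 36 mM, against 150, 157 and 138 at 15 mM (1.25 ± 0.13, adjusted p = 0.000149). The arrays at 36 mM were above those at 15 mM in all 3 genes. MRI1, the isomerase of the methionine salvage pathway, read 3257, 2956 and 3160 at 36 mM, against 1276, 1409 and 1393 at 15 mM (1.002 ± 0.10, adjusted p = 9.67e-05). BTS1, which makes geranylgeranyl diphosphate for protein prenylation, read 741, 679 and 592 at 36 mM, against 292, 293 and 316 at 15 mM (0.95 ± 0.11, adjusted p = 0.000229). CUR1, which sorts misfolded proteins to the nucleus, rose by 1.23 ± 0.30 (adjusted p = 0.0139), TRM44, a tRNA methyltransferase, by 0.86 ± 0.15 (adjusted p = 0.00236), and SUT2 by 0.85 ± 0.13 (adjusted p = 0.001).

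**Figure D5:**
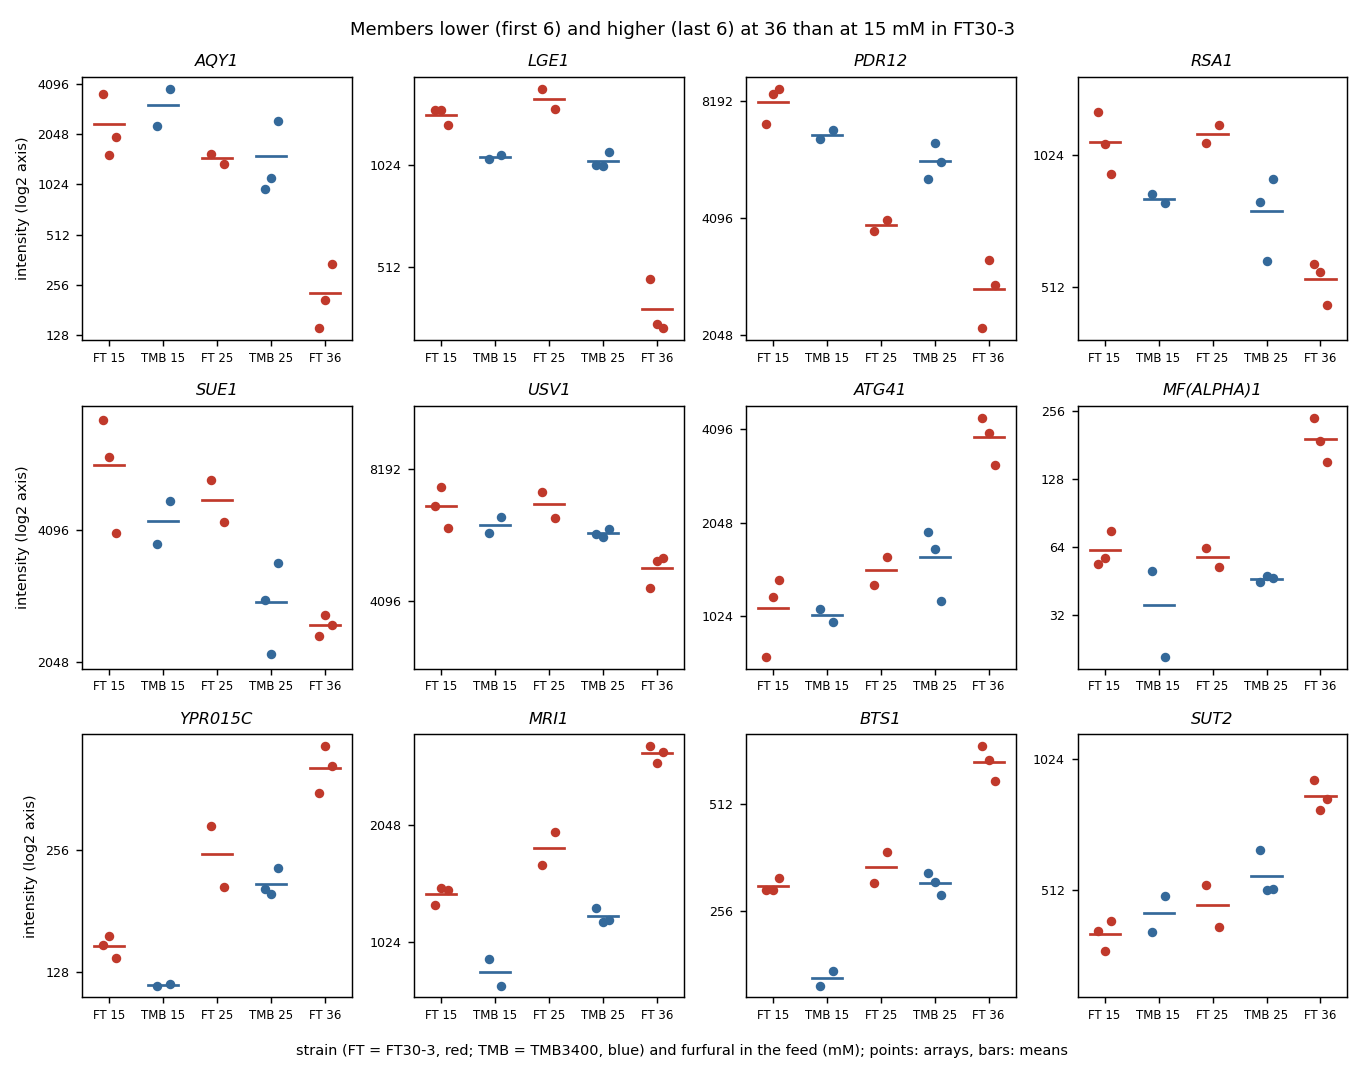
Intensity on a log2 axis of 12 members on each array, for FT30-3 (red) and TMB3400 (blue) at 15 and 25 mM and for FT30-3 at 36 mM, with bars at the group means. The first 6 genes fell and the last 6 rose at 36 against 15 mM in FT30-3, with all arrays at 36 mM outside the range of those at 15 mM.

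By function, the calls at 36 against 15 mM stand beside 11.0% of all genes called higher and 11.2% called lower. Of 21 genes of mitochondrial import, assembly and genome upkeep, 7 fell and 1 rose, with a list median of -0.30, against -0.0007 for all members. SUE1, the cytochrome oxidase assembly factors COX10 (-0.60, adjusted p = 0.00522) and COX11 (-0.49, adjusted p = 0.00197) and the mitochondrial distribution protein MDM36 (-0.44, adjusted p = 0.00213) passed under all settings. TOM5 and MGR2, subunits of the outer and inner membrane translocases, fell by 0.40 each, but lost their calls on values as deposited (adjusted p = 0.0741 and 0.134), where 4 genes of the list fell and 1 rose. In the translation and tRNA list 4 genes fell and 2 rose. Those that fell were EGD1, a ribosome-associated complex subunit, and 3 mitochondrial tRNA synthetases, ISM1 (-0.49), MSF1 (-0.43) and MSY1 (-0.54). MSY1 and MSF1 held under all settings, and ISM1 lost its call on values as deposited (adjusted p = 0.0616). EGD1 (-0.23, adjusted p = 0.0445) kept its call in only 1 of the 13 fits with a library left out, that without the first FT30-3 replicate at 36 mM, and lost it on values as deposited (adjusted p = 0.787), where 2 genes of the list fell and 6 rose. PUS1 and TRM44 were the 2 that rose.

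In the list of kinases, phosphatases and signalling, 4 of 16 genes were called, all 4 higher at 36 mM. Of all genes 11.0% were called higher and 22.2% either way, and the list itself was not tested. MKK2, a kinase of the cell wall integrity pathway, rose by 0.56 ± 0.09 (adjusted p = 0.00186) and RRD2, an activator of protein phosphatases, by 0.64 ± 0.15 (adjusted p = 0.01), both under all settings. TIP41 (0.48, adjusted p = 0.0193) and FRK1 (0.37, adjusted p = 0.0403) were the other two. Without the first FT30-3 replicate at 15 mM their adjusted p was 0.0759 and 0.144, and they lost their calls in 3 and 11 of 22 settings. On values as deposited 8 genes of the list rose. The chromatin list was mixed, with 2 genes higher and 5 lower, and LGE1 and UME1 were the lower ones that held under all settings. On values as deposited the same list had 6 higher and 3 lower. NHP6A, a bright DNA-bending protein, fell by 0.38 (adjusted p = 0.0121), a call lost on values as deposited (adjusted p = 0.124). HST2, a sirtuin deacetylase, rose by 0.56 ± 0.12 (adjusted p = 0.00781). Of 26 genes of secretory and vacuolar traffic, 1 rose and 1 fell, and 10 rose on values as deposited.

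At 25 against 15 mM few members passed. In FT30-3, 6 members passed (1.63%), 4 higher and 2 lower at 25 mM, where 2.15% of all genes passed (1.23% higher and 0.918% lower). In TMB3400, 5 passed (1.36%), 2 higher and 3 lower, where 1.6% of all genes passed (0.789% higher and 0.807% lower). On values as deposited, where the median of all genes was 0.13 higher at 25 than at 15 mM in each strain, 8 members were called higher and 2 lower in FT30-3, and 7 higher and 3 lower in TMB3400. The count in TMB3400 was 1 without the first and 3 without the second TMB3400 replicate at 15 mM, and 9 without the first FT30-3 replicate at 36 mM. PDR12 (-1.21 ± 0.17, adjusted p = 0.00233), SPC29 (1.20 ± 0.15, adjusted p = 0.00124) and FHL1 (1.17 ± 0.16, adjusted p = 0.00249) held under all settings in FT30-3, and YPL038W-A was the 1 member that did in TMB3400. UME1 fell in FT30-3 (-0.96 ± 0.16, adjusted p = 0.00753), a call lost without the second FT30-3 replicate at 25 mM (adjusted p = 0.0919). FMP30, a mitochondrial phospholipase, fell in TMB3400 (-1.15 ± 0.16, adjusted p = 0.00334), with 1210, 938 and 1031 at 25 mM, against 2143 and 2116 at 15 mM. That call was lost without the first TMB3400 replicate at 15 mM (adjusted p = 0.0528). FT30-3 read 2656 and 2191 at 25 mM, against 2251, 2442 and 2625 at 15 mM.

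BTS1 rose in TMB3400 at the lower step (0.74 ± 0.12, adjusted p = 0.0101), with 327, 308 and 283 at 25 mM, against 158 and 174 at 15 mM. In FT30-3 it read 307 and 373 at 25 mM, against 292, 293 and 316 at 15 mM (0.01 ± 0.12, adjusted p = 0.991), and the interaction did not pass (-0.73 ± 0.17, adjusted p = 0.144). The call in TMB3400 was lost without either TMB3400 replicate at 15 mM (adjusted p = 0.166 without the first and 0.0585 without the second). YPR078C was called in both strains and rested on dim values, with 328 and 444 at 25 mM, against 84.7, 74.3 and 72.3 at 15 mM in FT30-3 (2.13 ± 0.38, adjusted p = 0.0126), and with 162, 175 and 338 at 25 mM, against 62.4 and 47.8 at 15 mM in TMB3400 (1.80 ± 0.38, adjusted p = 0.0425). The adjusted p reached 0.129 in FT30-3 without its second replicate at 25 mM and 0.341 in TMB3400 without its second replicate at 15 mM.

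At 36 against 25 mM in FT30-3, 35 members passed (9.51%), 15 higher and 20 lower at 36 mM, where 7.1% of all genes passed (3.38% higher and 3.73% lower). On values as deposited 16 were called higher and 11 lower, with a median change of 0.06 over members and 0.05 over genes off the chromosome. The count fell to 11 without the first and 17 without the second FT30-3 replicate at 25 mM, and to 21 without the second FT30-3 replicate at 15 mM or either the second or the third at 36 mM. LGE1, RSA1 (-1.15 ± 0.17, adjusted p = 0.00299), FHL1 (-1.75 ± 0.16, adjusted p = 0.000147) and PUS1 (1.10 ± 0.16, adjusted p = 0.00277) held under all settings. PUS1 read 2809, 2035 and 2242 at 36 mM, against 1020 and 1112 at 25 mM, and the groups were apart.

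Whether a gene's change from 15 to 25 mM differed between the strains was tested as an interaction, in which 4 members passed (1.09%), all with a higher change in FT30-3, where 0.679% of all genes passed (0.422% higher and 0.257% lower). YPL038W-A, for which no role is given here, had the highest value. It read 1850 and 1876 in FT30-3 and 119, 111 and 112 in TMB3400 at 25 mM, and 1978, 1709 and 1772 in FT30-3 and 1273 and 1407 in TMB3400 at 15 mM. At 36 mM it read 1840, 1771 and 1782 in FT30-3. All 10 arrays of the other 4 groups lay between 1273 and 1978, and TMB3400 at 25 mM lay apart from them, still above background. The interaction was 3.56 ± 0.12 (adjusted p = 5.24e-08) and passed under all 22 settings. The change at 25 against 15 mM was -0.13 ± 0.09 in FT30-3 (adjusted p = 0.725) and -3.68 ± 0.09 in TMB3400 (adjusted p = 8e-10).

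Its neighbour YPL039W passed the same test with a smaller value (0.73 ± 0.13, adjusted p = 0.0259). It read 1364 and 1434 in FT30-3 and 596, 523 and 544 in TMB3400 at 25 mM, and 1169, 1109 and 1124 in FT30-3 and 812 and 701 in TMB3400 at 15 mM. The next members on either side, EGD1 (-0.10 ± 0.12) and ISM1 (0.04 ± 0.15), had interactions within their error. FHL1, a regulator of ribosomal protein genes, had an interaction of 1.33 ± 0.23 (adjusted p = 0.0253), with 1587 and 1170 in FT30-3 at 25 mM and all other 11 arrays between 336 and 547. SPC29, a spindle pole body protein, had 1.14 ± 0.21 (adjusted p = 0.0383), with 879 and 874 in FT30-3 and 221, 270 and 208 in TMB3400 at 25 mM, against 315, 356 and 355 in FT30-3 and 195 and 210 in TMB3400 at 15 mM. In both genes the FT30-3 arrays at 25 mM were the high ones, and the level at 36 mM was lower again. In a fit with a term for the replicate number, the interaction did not pass for YPL039W or SPC29. With 1 library left out, the interaction lost its call in 8 of 13 fits for YPL039W, 8 for FHL1 and 10 for SPC29. The highest adjusted p was 0.187 for YPL039W and 0.161 for FHL1, both without the first TMB3400 replicate at 15 mM, and 0.213 for SPC29, without the second. Only YPL038W-A passed without any 1 of the FT30-3 replicates at 15 mM, the first FT30-3 replicate at 25 mM, the first TMB3400 replicate at 15 mM or the third TMB3400 replicate at 25 mM, and 2 members passed without the second FT30-3 replicate at 25 mM, the second TMB3400 replicate at 15 mM or the second TMB3400 replicate at 25 mM.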

How the data were processed

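RNA was read on 1-colour Affymetrix arrays in 13 samples, 8 of FT30-3 and 5 of TMB3400, per the labels' protocols. The deposited values are intensities on a linear scale, 1 for each of 10928 probe sets and array. The submitters' processing notes name R 2.7.2. The summary of probes, background correction, normalization and genome build are unknown: none is given in the sources used here. Centring of the arrays before deposit is therefore unknown too. Of the probe sets, 5498 are annotated to 1 S. cerevisiae gene, 1746 to 1 S. pombe gene, 1 to several genes and 3683 to none. The brightest probe set stood for a gene with several, leaving 5449 genes. All 368 members matched RefSeq's gene table (assembly R64) for names. A symbol such as MRPL followed by a digit was read as belonging to the MRP family and left out (371 members otherwise).

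Tests used log2(intensity + 1) and limma 3.58.1 (lmFit, eBayes) in R 4.3.3, with 1 mean per strain and level over all 13 samples and Benjamini-Hochberg adjustment over all genes at 0.05. Strain comparisons used the values as deposited, and comparisons of furfural levels used arrays set to a common median. A simulation with 200 changed genes was used to test the script. The 22 alternatives were 2 other centrings, quantile normalization, a pseudocount of 16, a filter at a mean log2 of 7, an intensity trend, a replicate block, the mean of probe sets, the compared groups only and leaving out each of 13 samples. The limma p-values set a difference against the spread between replicates, pooled over all groups and moderated across genes. In the main fit each comparison therefore also draws on arrays outside it. The number of samples limits the precision.

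The members, the 20 function lists and the 14 complexes were chosen with earlier results of these data known. Genes named were the 12 lowest and 12 highest strain differences, the 10 highest and 10 lowest called changes per furfural comparison, the 3 brightest of each list, complex subunits, and AQY1, YPL038W-A, FRK1 and SGF11. COX10, COX11, MDM36, ISM1, MSF1, MSY1, HAL1, RRD2, HST2, PIN3, SMA1 and TIP41 were named after their values were seen. GAL4, TEF1 and FDH2 were not analysed here. Sequences were not used.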

Additional observations from a re-analysis of the deposited data

Results flagged for a closer look

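The change from 15 to 25 mM furfural differed between FT30-3 and TMB3400 in 4 members by a test of the difference itself (limma, adjusted over 5449 genes). The values, FT30-3 change minus TMB3400 change on the log2 scale, were 3.56 for YPL038W-A, 0.73 for YPL039W, 1.14 for SPC29 and 1.33 for FHL1. Over all genes 37 passed this test. YPL038W-A and YPL039W were low in TMB3400 at 25 mM, while SPC29 and FHL1 were high in FT30-3 at 25 mM, where there are 2 arrays. YPL038W-A passed under all 22 alternatives, and the other 3 lost their calls with some single libraries left out. YPL039W and SPC29 also lost theirs in the fit with a replicate block. S. pombe probe sets passed the same test in 1.26% of cases, and how far the spread behind those calls enters the other 3 genes was not tested.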

How the results depend on the processing

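The strain shift of the members kept its direction under the 17 alternatives run for it, and lay between 0.482 and 0.494 at 15 mM, 0.481 and 0.498 at 25 mM and 0.481 and 0.497 on average with 1 library left out. Members at or below 0 then numbered 8 to 12, and those at or above 1 numbered 6 to 9. With arrays centred on genes off the chromosome, an alternative added after seeing the data, they numbered 7 and 8. With 1 library left out, the change in the median member level per array, 36 against 15 mM, ran from -7.15e-05 to 0.0141. Another alternative of it with each gene centred first, chosen after seeing the data, gave 0.0155 (exact permutation p = 0.7).

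Counts of called members moved more. With 1 library left out they ran from 4 to 174 at 15 mM, 43 to 208 at 25 mM and 182 to 292 on average between strains, from 4 to 8 at 25 against 15 mM in FT30-3 and 1 to 9 in TMB3400, from 55 to 92 at 36 against 15 mM, 11 to 33 at 36 against 25 mM and 1 to 6 for the interaction. On the other centring, which for furfural levels is the values as deposited, 126 members were called at 36 against 15 mM, 10 at 25 against 15 mM in FT30-3 and 10 in TMB3400. With the spread taken from the compared groups alone, the counts were 66 between strains at 25 mM, 3 at 25 against 15 mM in TMB3400 and 9 at 36 against 25 mM. The causes were not tested. No share of all genes called stands beside the counts under alternatives, here or elsewhere, so they are not read as results about the members. Of the single genes' furfural and interaction values under alternatives, 1401 kept their side of the threshold, 156 lost it and 1 gained it, and none that passed the test changed sign.

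Same-numbered replicates deviated together (r over 0.1) in 14 of 23 pairs (median r 0.20), and differently numbered ones in 19 of 44 (median r -0.17). In a group of 2 arrays the deviations mirror each other, so the pairs are not independent counts. Since not all same-numbered pairs were over 0.1, the numbers were not taken to pair the samples. All 13 same-numbered pairs outside FT30-3 at 15 mM were over 0.1 (0.199 to 0.712), and 1 of the 10 with it was. This is a hint from the data and not the design. A fit with a replicate block called 58 members between strains at 15 mM, 127 at 25 mM and 255 on average, and 83 at 36 against 15 mM, 24 at 36 against 25 mM, 6 at 25 against 15 mM in each strain and 2 for the interaction, where YPL039W (adjusted p = 0.089) and SPC29 (adjusted p = 0.141) did not pass.

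Groups of 2 or 3 arrays limit what these comparisons can show, and each group of 2 weighs on every comparison it enters. The strain and the furfural level cannot be told apart at 36 mM, where only FT30-3 was grown. The strain is represented by 1 evolved line and its parent, so differences between other isolates were not measured. Dim probe sets carry less signal over background, and log2(intensity + 1) understates their changes.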
